A study of Mus musculus with 6 samples.

Results

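The genes described here encode the enzymes that turn glucose into lactate: Hk2, Gpi1, Pfkl, Aldoa, Tpi1, Gapdh, Pgk1, Eno1, Pkm and Ldha. They were taken by symbol from a deposited table of 34745 genes, and all 10 were found and tested among 11711 genes with enough counts. The libraries came from RAW 264.7 cells, a mouse macrophage-like line grown in DMEM with 10% fetal bovine serum. One group of 3 libraries was treated with the solvent DMSO and the other group of 3 with bisphenol AP (BPAP), a relative of bisphenol A. The comparison asks which genes of these macrophages differ after BPAP. The line is a single transformed line, its labels name no genetic change, and no dose or exposure time is stated in the sources used here. Separate cultures are not stated for the libraries of a group, so the p-values reflect variation among the 6 libraries alone, and that variation may be technical.

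Glycolysis splits a 6-carbon sugar into 3-carbon units and recovers ATP and NADH from them. Its first steps spend ATP to trap and phosphorylate the sugar, and its later steps return ATP and end in pyruvate. Lactate dehydrogenase then reduces pyruvate and regenerates the NAD that the pathway needs to continue. Macrophages raise glycolytic flux when activated by inflammatory signals, and much of the control of that flux acts on enzyme activity, which RNA counts do not measure.

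Library totals ranged from 11084705 to 13806559 counts. All 8 macrophage markers examined passed the count filter, with a summed level of 4455 to 5017 CPM (counts scaled to library size) in the DMSO libraries and 5000.4 to 5348 CPM in the BPAP libraries. Markers of fibroblasts, epithelial cells, T cells, B cells, neutrophils and endothelial cells summed to at most 0.915 CPM per type in any library. Dcn, Pdgfra, Epcam, Cdh1, Krt18, Cd3e, Cd3g, Cd8a, Ms4a1, Ly6g, Mpo and Cdh5 had no count in any library. Of these 8 macrophage markers, 4 were higher in BPAP and 2 were lower, or 2 and 1 once the trends of exon length and GC content described further on were removed. Without those trends Fcgr1 (log2 fold change 1.02, edgeR adjusted p = 0.00163), Cd14 (0.97, 0.0239) and Csf1r (-0.39, 0.0115) passed, and Adgre1 (0.23, 0.107), Lyz2 (0.02, 0.869) and Ptprc (-0.02, 0.884) did not. The part of these markers in the results for the enzyme genes was not tested. These are bulk libraries, in which fewer cells of a type and less RNA per cell cannot be told apart.

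The enzyme genes moved in both directions. Tpi1 and Ldha were higher in BPAP, Hk2, Gpi1 and Eno1 were lower, and 5 members did not pass the threshold, an adjusted p of 0.05 by the quasi-likelihood test of edgeR (Benjamini-Hochberg, over the whole set of genes tested). Of all genes tested, 16.2% were higher and 15.5% were lower by the same rule, 31.7% in either direction. The median log2 fold change of the 10 members, BPAP minus DMSO, was -0.01 against 0.02 for all genes tested. BPAP and DMSO values did not overlap for 7 of the 10 members, while 49.0% of all genes tested did not overlap. The changes that passed were of 1.21-fold to 1.38-fold. The genes lie on several chromosomes, some of them on the same one. In the coordinates of the deposited table (GRCm38), Hk2 is at chr6:82725025-82774454, Tpi1 at chr6:124810586-124814296 and Gapdh at chr6:125161715-125166467. Gpi1 is at chr7:34201330-34230336, Ldha at chr7:46841475-46855627 and Aldoa at chr7:126795234-126800751, and Eno1 is at chr4:150236721-150248879. Fold changes are those of the fitted model, and levels are CPM scaled by edgeR's TMM factors.

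**Figure D1:**
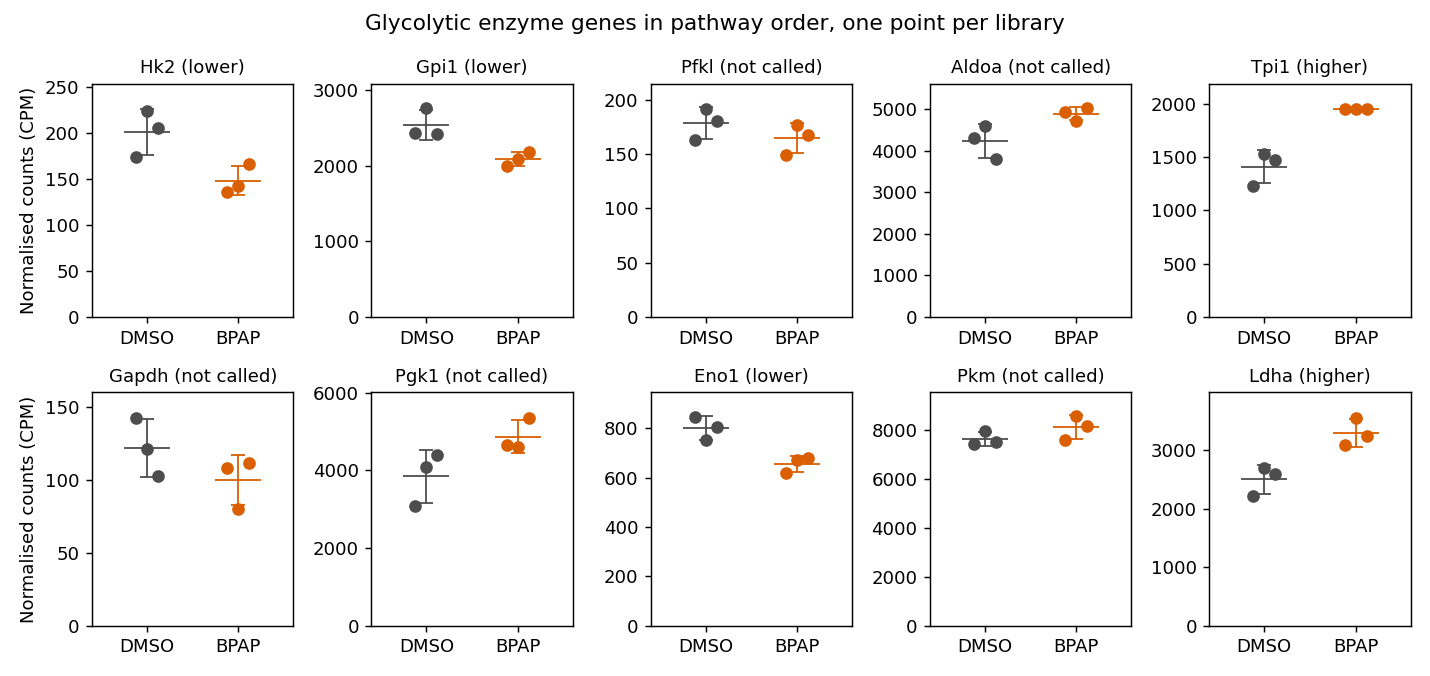
Normalised counts (CPM, y axis from 0) of the 10 glycolytic enzyme genes in 3 DMSO and 3 BPAP libraries, in pathway order; points are libraries, the wide bar is the mean and the whiskers the SD. The 3 BPAP points of Tpi1 lie within 1949 to 1955 CPM, above all DMSO points, while those of Hk2, Gpi1 and Eno1 lie below all DMSO points.

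Hk2 encodes hexokinase 2, which phosphorylates glucose at the entry to the pathway and is the hexokinase most tied to induced glycolysis. Its level was 174, 224 and 205 CPM in DMSO libraries 1 to 3 and 136, 143 and 166 CPM in BPAP libraries 1 to 3. All 3 BPAP values lay below the lowest DMSO value. The mean fell from 201 ± 25.0 to 148 ± 15.8 CPM (SD, n = 3 each), a log2 fold change of -0.44 ± 0.11 (SE; edgeR adjusted p = 0.0155). The call was lost without DMSO library 2 (adjusted p = 0.0686) or BPAP library 1 (0.0556).

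Gpi1 encodes glucose-6-phosphate isomerase, which converts glucose 6-phosphate to fructose 6-phosphate. It counted 2429.7, 2770.1 and 2419.8 CPM in the DMSO libraries and 2003, 2086 and 2189 CPM in the BPAP libraries. The groups did not overlap, and the mean fell from 2539.8 ± 199 to 2093 ± 93.0 CPM (SD, n = 3 each). The log2 fold change was -0.28 ± 0.09 (SE; edgeR adjusted p = 0.0391). This was the member whose call depended most on single libraries: the adjusted p was 0.0291 without DMSO 1, but 0.161 without DMSO 2, 0.0670 without DMSO 3, 0.126 without BPAP 1, 0.0536 without BPAP 2 and 0.0631 without BPAP 3.

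Pfkl encodes the liver-type subunit of phosphofructokinase, the enzyme of the first committed step. It had 163, 192 and 181 CPM in DMSO and 149, 177 and 168 CPM in BPAP, and the groups overlapped. Its log2 fold change was -0.12 ± 0.10 (SE; edgeR adjusted p = 0.389).

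Aldoa encodes aldolase A, which cleaves fructose 1,6-bisphosphate into a pair of triose phosphates. It counted 4314, 4597 and 3798 CPM in DMSO and 4929.8, 4729 and 5027 CPM in BPAP. The lowest BPAP library stood above the highest DMSO library, yet the difference did not pass (log2 fold change 0.21 ± 0.10 SE, edgeR adjusted p = 0.121).

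Tpi1 encodes triosephosphate isomerase, which interconverts the triose phosphates made by aldolase. Its values were 1232, 1534 and 1469.9 CPM in DMSO and 1955, 1951 and 1949 CPM in BPAP. The BPAP libraries were all above the DMSO libraries, and the mean rose from 1412 ± 159 to 1952 ± 3.39 CPM (SD, n = 3 each). This was a 1.38-fold rise (log2 fold change 0.47 ± 0.10 SE, edgeR adjusted p = 0.00636), and it passed in each of the 6 fits that left out 1 library.

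Gapdh encodes glyceraldehyde-3-phosphate dehydrogenase, the step that makes NADH, and is often used as a reference gene. It counted only 142, 121 and 103 CPM in DMSO and 108, 80.0 and 111 CPM in BPAP. The groups overlapped, and the log2 fold change was -0.29 ± 0.15 (SE; edgeR adjusted p = 0.173). Its rank by mean CPM, which is not scaled to gene length, was 1874 of 11711. Pfkl ranked 1027, Hk2 1004 and Eno1 134, whereas Pkm ranked 5, Aldoa 11, Pgk1 14, Ldha 23, Gpi1 29 and Tpi1 48.

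Pgk1 encodes phosphoglycerate kinase 1, the first ATP-yielding step. It had 3083, 4087 and 4383 CPM in DMSO and 4641, 4608 and 5348 CPM in BPAP. DMSO library 1 was the lowest of the 6, and the groups did not overlap. The difference did not pass (log2 fold change 0.34 ± 0.13 SE, edgeR adjusted p = 0.0732).

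Pgam1, the phosphoglycerate mutase that links Pgk1 to enolase, was read as the missing step of the chain. It counted 2089, 1832 and 1846 CPM in DMSO and 1967, 2189.6 and 1920.5 CPM in BPAP, with overlapping groups (log2 fold change 0.08 ± 0.09 SE, edgeR adjusted p = 0.567).

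Eno1 encodes enolase 1, which makes phosphoenolpyruvate. Its row held 846, 751 and 804 CPM in DMSO and 617, 669.9 and 678 CPM in BPAP. The groups did not overlap, and the mean fell from 801 ± 47.4 to 655 ± 32.9 CPM (SD, n = 3 each; log2 fold change -0.29 ± 0.09 SE, edgeR adjusted p = 0.0274). The call was lost without DMSO 1 (adjusted p = 0.0520), DMSO 3 (0.0772) or BPAP 1 (0.103), and when a near-identical gene was added, as described further on.

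Pkm encodes the muscle-type pyruvate kinase, which makes pyruvate and ATP. It was the member with the most counts, with 7455, 7955 and 7503 CPM in DMSO and 7618, 8602 and 8157 CPM in BPAP. The groups overlapped (log2 fold change 0.09 ± 0.09 SE, edgeR adjusted p = 0.475). The table gives 1 value per gene, so its M1 and M2 splice forms were not told apart.

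Ldha encodes lactate dehydrogenase A, which turns pyruvate into lactate. Its values were 2214, 2693 and 2597 CPM in DMSO and 3092, 3561 and 3243 CPM in BPAP. All BPAP libraries stood above all DMSO libraries. The mean rose from 2502 ± 254 to 3299 ± 239.6 CPM (SD, n = 3 each), a 1.32-fold rise (log2 fold change 0.40 ± 0.10 SE, edgeR adjusted p = 0.0152) that passed in each of the 6 fits without 1 library.

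The members that rose and those that fell also differed in the length of their merged exons. Merged exons, with each base counted once, span 2753 bases for Tpi1 and 3310 for Ldha, against 5379 for Eno1, 5969 for Hk2 and 6452 for Gpi1. The median of all genes tested was 4298 bases. Protein-coding transcripts alone hold 1714 distinct 50-base words for Tpi1 and 2845 for Ldha. They hold 2884 for Eno1, 2928 for Gpi1 and 5918 for Hk2, so Ldha is close to Eno1 and Gpi1 by this count. When each library's trend of counts with exon length and GC content was removed, 0 members were higher and 2 were lower by edgeR's quasi-likelihood test, where 11.8% of all genes tested were higher and 10.9% were lower (22.7% in either direction). At an unadjusted p under 0.05 in that fit, 2 members were higher and 3 were lower, against 18.9% and 18.3% of all genes tested. Hk2 (log2 fold change -0.42, adjusted p = 0.0235) and Eno1 (-0.29, 0.0333) passed with the trend removed. Tpi1 (0.27, 0.0525), Ldha (0.24, 0.0756) and Gpi1 (-0.23, 0.0722) did not. The estimates of Aldoa and Pgk1, both with short merged exons (2911 and 2244 bases), moved from 0.21 to 0.05 and from 0.34 to 0.11. What part exon length has in the counts of these genes was not tested further.

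**Figure D2:**
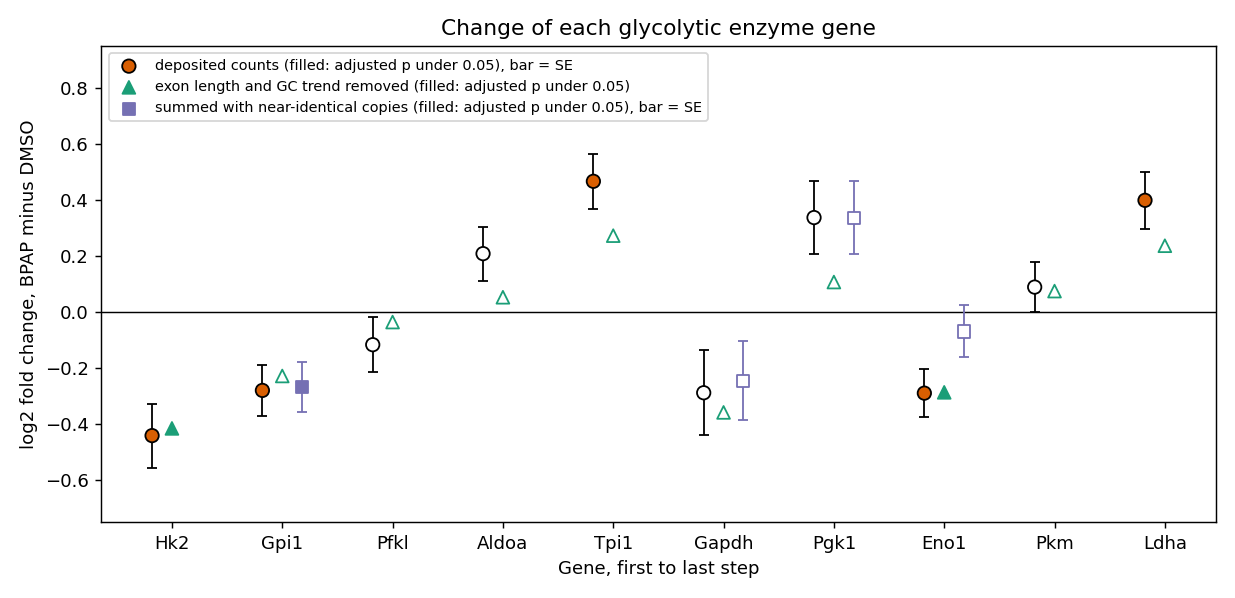
Log2 fold change (BPAP minus DMSO, y axis) of each member in pathway order, from the deposited counts (circles, bar = SE), with trends of exon length and GC taken out (triangles) and summed with near-identical copies (squares, bar = SE), filled where the adjusted p is under 0.05. Circles are filled for 5 members and triangles for 2, and the square of Eno1 lies near 0, at -0.07.

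Levels of different members can be compared only per length. On the scale of CPM per kilobase of merged exons, the DMSO means were 1716 ± 304 for Pgk1, 1527 ± 55.2 for Pkm and 1455 ± 139 for Aldoa (SD, n = 3), which lie within each other's spread. Ldha (756 ± 76.6), Tpi1 (513 ± 57.7) and Gpi1 (394 ± 30.9) followed, then Eno1 (149 ± 8.81). Hk2 (33.7 ± 4.19), Gapdh (29.5 ± 4.82) and Pfkl (26.8 ± 2.19) were the lowest and lay within or close to each other's spread. The order depends on the length used. In the deposited FPKM values, which rest on another gene length, the DMSO mean of Pkm was 2971, above 1279 for Pgk1 and 724 for Aldoa, and that of Gapdh was 14.2, below 37.1 for Pfkl. Together the members made up 2.37 ± 0.189% of all counts in the DMSO group and 2.60 ± 0.0900% in the BPAP group (SD, n = 3 each), with overlapping groups.

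**Figure D3:**
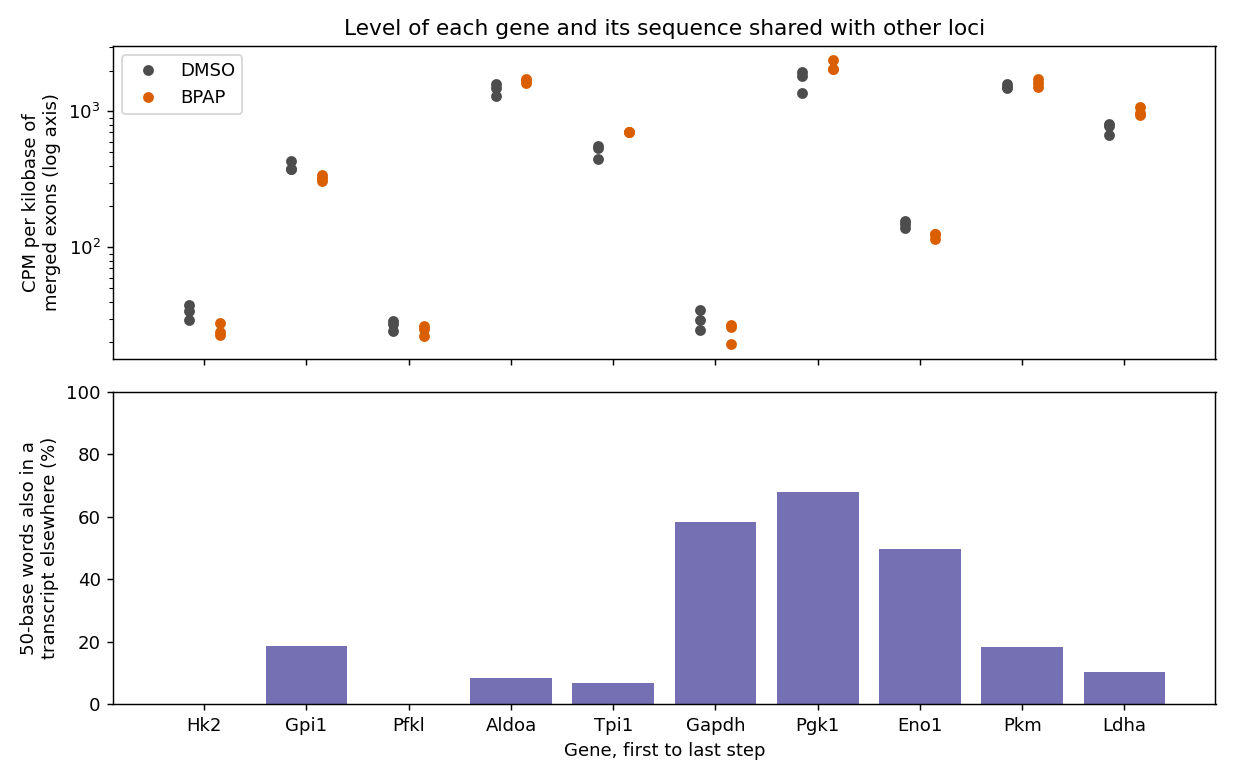
Upper panel, CPM per kilobase of merged exons (log axis) of each member in each library; lower panel, percentage of the gene's distinct 50-base words that also occur in an annotated transcript at another locus. Gapdh sits with Hk2 and Pfkl at the bottom of the upper panel, and it has 58.4% of its words elsewhere, while Hk2 has 0.

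Several of these genes have near-identical copies elsewhere in the genome, which bears on how reads could be counted. The treatment of reads that match more than 1 place is not given in the sources used here, nor is the read length. Distinct 50-base words were taken from the protein-coding GENCODE M21 transcripts of each member. Of these, 68.0% for Pgk1, 58.4% for Gapdh, 49.5% for Eno1, 18.6% for Gpi1 and 18.4% for Pkm also occur in a transcript at another locus. The shares are 10.4% for Ldha, 8.46% for Aldoa, 6.83% for Tpi1, 0.0532% for Pfkl and 0 for Hk2. The median over the 11665 tested genes with such words was 0, where sharing with any other gene counted, overlapping genes included. Copies that hold at least 10% of a member's words number 56 for Gapdh, 3 for Pgk1, 2 for Eno1, and 1 each for Gpi1 and Pkm.

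Of the 56 Gapdh copies, 52 are annotated as processed pseudogenes and only 4 have a row in the table used here. Those 4 rows averaged 44.8 counts per library or fewer, against 1367 for Gapdh itself. The closest copy by this measure, the processed pseudogene Gm7336, holds 58.2% of the words. It is identical to the coding sequence of transcript Gapdh-202 over all 1020 aligned bases of 1080, as the stretch from coding base 61 to 120 shows, which reads the same in both genes.

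Gapdh and Gm7336: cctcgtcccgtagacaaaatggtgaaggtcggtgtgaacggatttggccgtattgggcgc

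Pgk1 is identical to its copy Pgk1-rs7 over 1253 of 1254 coding bases, and Pgk1-rs7 averaged 56.5 counts per library. Whether the low Gapdh count comes from reads that match several loci was not tested.

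Eno1 shares its reads' possible origins with Eno1b, a near-identical copy annotated as protein coding, which matches 1297 of 1305 coding bases of transcript Eno1-202. The Eno1b row held more counts than Eno1, 13727 against 9030.3 per library on average. It counted 895, 1180.2 and 1143 CPM in DMSO and 1017, 1232 and 1144 CPM in BPAP, with overlapping groups (log2 fold change 0.08, edgeR adjusted p = 0.659). With both rows summed, the values were 1741, 1932 and 1947 CPM in DMSO and 1634, 1901 and 1822 CPM in BPAP. These overlapped, and the fall seen in the Eno1 row alone was not called (log2 fold change -0.07 ± 0.09 SE, edgeR adjusted p = 0.598). That sum was fitted only without removal of the length and GC trend. With the trend removed, the separate rows were both negative, Eno1b at -0.22 (edgeR adjusted p = 0.157) and Eno1 at -0.29 (0.0333). Eno1b made up 57.1 ± 5.04% of the summed counts in the DMSO group, and in the BPAP group this was 63.3 ± 1.34% (SD, n = 3 each). The groups did not overlap in that share (exact permutation test, 2-sided p = 0.1, which is the lowest value possible with 3 and 3 libraries; 0.267 adjusted over the 8 shares tested).

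**Figure D4:**
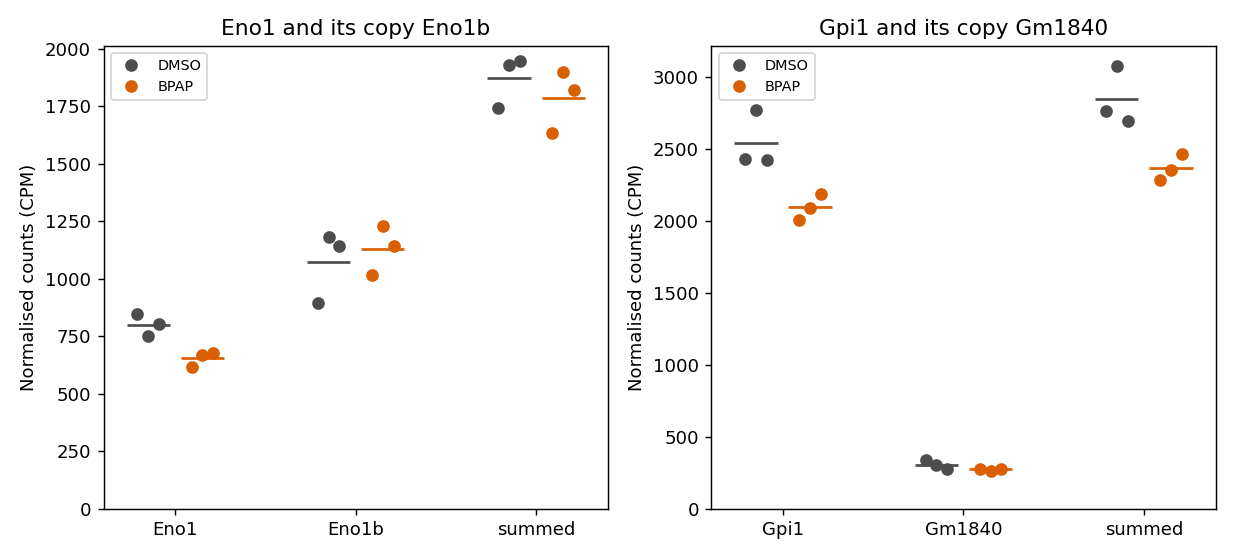
Normalised counts (CPM, y axis from 0) of Eno1, its copy Eno1b and their sum (left), and of Gpi1, its copy Gm1840 and their sum (right); points are libraries and bars group means. The BPAP points lie below all DMSO points for Eno1 alone, and overlap them once Eno1b is added, while those of Gpi1 stay below with Gm1840 added.

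The copy of Gpi1 held fewer counts. Gm1840 averaged 3567 counts per library, 12.4% of those of Gpi1, and its log2 fold change was -0.16 (edgeR adjusted p = 0.198), or -0.50 with the length and GC trend removed (0.00758). The sum of both rows was still lower in BPAP (log2 fold change -0.27 ± 0.09 SE, adjusted p = 0.0425). The genes differ at 20 of 1432 aligned coding bases. The window from coding base 169 to 228 of transcript Gpi1-201 is one of those with the most differences, and capitals mark the 2 bases that differ.

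Gpi1: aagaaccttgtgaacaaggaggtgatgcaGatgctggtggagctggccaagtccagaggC
Gm1840: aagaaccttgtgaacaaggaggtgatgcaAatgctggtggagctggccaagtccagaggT

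Summing changed no other member's call: Pgk1 stayed at 0.34 ± 0.13 (SE; edgeR adjusted p = 0.0727) and Gapdh at -0.24 ± 0.14 (0.211). Pgam1 with its copies gave 0.10 ± 0.09 (0.429). After summing, 31.7% of all genes tested were called in either direction. Exons of 5 members also overlap another gene. On the opposite strand, Tpi1 meets Spsb2 over 34 bases, Aldoa meets Fam57b over 25, Gapdh meets Iffo1 over 68 and Gpi1 meets Gm26762 over 741, and on the same strand Pkm meets Gm49759 over 767 bases. No strand setting is stated in the sources used here, so reads from those stretches cannot be told apart.

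Sequences upstream of the start sites were read for the 5 members called, since the core glycolytic genes are textbook targets of hypoxia-inducible factor, whose sites hold ACGTG or GCGTG. Each line gives the 250 bases before the RefSeq start site on GRCm38.p6, 5′ to 3′ on the gene's strand, with every ACGTG or GCGTG on either strand in capitals. The windows are chr7:46845554-46845803 (plus strand) for Ldha, chr6:124814159-124814408 (minus) for Tpi1, chr6:82774455-82774704 (minus) for Hk2, chr7:34230337-34230586 (minus) for Gpi1 and chr4:150236458-150236707 (plus) for Eno1. Ldha has 2 RefSeq starts and Eno1 has 3, of which the one nearest the annotated gene's 5′ end is shown, and the Ldha start shown lies 4329 bases inside the annotated gene.

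Ldha: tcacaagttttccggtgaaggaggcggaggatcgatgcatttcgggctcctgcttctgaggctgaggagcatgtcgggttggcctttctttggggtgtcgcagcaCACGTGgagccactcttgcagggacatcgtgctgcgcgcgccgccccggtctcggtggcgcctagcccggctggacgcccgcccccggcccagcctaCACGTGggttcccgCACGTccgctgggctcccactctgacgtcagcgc
Tpi1: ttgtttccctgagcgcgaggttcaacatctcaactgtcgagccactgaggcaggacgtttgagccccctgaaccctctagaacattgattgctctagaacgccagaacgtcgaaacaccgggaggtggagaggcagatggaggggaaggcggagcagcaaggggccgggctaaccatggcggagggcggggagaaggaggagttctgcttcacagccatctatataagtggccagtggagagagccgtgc
Hk2: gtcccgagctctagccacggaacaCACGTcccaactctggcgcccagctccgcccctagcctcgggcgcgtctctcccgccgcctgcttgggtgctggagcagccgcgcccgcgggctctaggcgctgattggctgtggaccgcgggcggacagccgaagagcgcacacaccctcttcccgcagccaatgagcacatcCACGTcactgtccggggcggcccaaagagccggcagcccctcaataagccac
Gpi1: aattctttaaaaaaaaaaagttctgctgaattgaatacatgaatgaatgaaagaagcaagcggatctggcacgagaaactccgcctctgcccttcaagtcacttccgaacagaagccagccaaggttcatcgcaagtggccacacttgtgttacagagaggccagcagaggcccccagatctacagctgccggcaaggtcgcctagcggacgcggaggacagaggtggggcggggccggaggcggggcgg
Eno1: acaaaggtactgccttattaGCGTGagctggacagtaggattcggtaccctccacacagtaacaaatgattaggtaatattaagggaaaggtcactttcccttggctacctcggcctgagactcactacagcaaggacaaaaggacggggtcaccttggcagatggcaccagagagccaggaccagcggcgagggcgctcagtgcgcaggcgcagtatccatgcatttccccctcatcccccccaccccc

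Among the 5 members called, such strings occur in a gene that rose and in genes that fell. Any part of hypoxia-inducible factor in these changes was not tested. Ldha, which rose, holds ACGTG 5 times, counting both strands, including 2 copies of the palindrome CACGTG, which matches on both strands. Tpi1, which rose as well, holds neither ACGTG nor GCGTG. Hk2, which fell, holds ACGTG 2 times, Eno1 holds GCGTG 1 time and Gpi1 holds neither. Of the members not called, Pgk1 holds ACGTG 2 times, Gapdh GCGTG 2 times and Pfkl GCGTG 1 time, and Aldoa and Pkm hold neither. Aldoa has 3 RefSeq starts and Pkm has 2, and only the start nearest the annotated 5′ end was read for each. Over 32851 RefSeq upstream windows of the same length, 16.6% hold ACGTG, 28.2% hold GCGTG and 6.02% hold CACGTG. The motif TGATGNAA, bound by factors of the ATF4 group, is in none of the 10 members' windows and in 3.45% of all. A match is a string of letters, not a bound site.

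Isozyme genes encode other enzymes for the same steps. Of 18 isozyme genes and mutases, 9 passed the count filter, 0 were higher and 1 was lower by edgeR's quasi-likelihood test, and the counts at an unadjusted p under 0.05 were also 0 and 1. Of all genes tested, 22.5% were higher and 21.2% lower at that unadjusted p, and 15.4% and 16.0% of the 11478 genes with an adjusted p from DESeq2 were called higher and lower by it. The gene that fell was Eno2, which encodes the neuronal-type enolase. It had 769, 792 and 694 CPM in DMSO and 449, 381 and 547 CPM in BPAP, with no overlap (log2 fold change -0.71, edgeR adjusted p = 0.00320). After removal of the length and GC trend it was -0.73 (edgeR adjusted p = 0.00769). Hk1, Hk3, Pfkm and Pfkp had log2 fold changes of -0.13, -0.13, -0.14 and -0.13, Aldoc -0.02 and Eno3 -0.06, and none passed. The other 9 genes, among them Ldhb, Pklr and Pgk2, had no count in any library.

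Within the hexokinases, per kilobase of exons, Hk2 made up 28.0 ± 1.08% of Hk1, Hk2 and Hk3 in DMSO and 23.8 ± 1.92% in BPAP (SD, n = 3 each). The groups did not overlap (exact permutation test, 2-sided p = 0.1, again the lowest possible; 0.267 adjusted over 8 shares). Hk3 held 43.3 ± 0.501% and 45.8 ± 4.97%, and Hk1 28.7 ± 1.57% and 30.3 ± 4.73%, both with overlapping groups. In the phosphofructokinase family, Pfkl held 24.9 ± 0.318% of Pfkl, Pfkm and Pfkp in DMSO and 25.1 ± 1.50% in BPAP, and Pfkp held 52.1 ± 1.40% and 52.0 ± 0.849%. Aldoa made up 94.0 ± 0.519% of Aldoa and Aldoc in DMSO and 94.9 ± 0.275% in BPAP, without overlap (p = 0.1 by the same exact permutation test; 0.267 adjusted).

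Among regulators of flux, 7 of 8 genes were tested, 0 were higher and 1 was lower by edgeR's test, with 1 and 1 at an unadjusted p under 0.05. Pfkfb2, whose bifunctional product sets the level of the phosphofructokinase activator fructose 2,6-bisphosphate, counted 35.3, 41.4 and 40.0 CPM in DMSO and 22.2, 21.3 and 24.8 CPM in BPAP. All BPAP values lay below all DMSO values (log2 fold change -0.77, edgeR adjusted p = 0.00144, and -0.65 with adjusted p = 0.00384 with the trend removed). Pfkfb2 overlaps Yod1 over 154 exon bases on the opposite strand, and Yod1 averaged 807 counts per library against 386 for Pfkfb2. It also overlaps Gm29427 over 1262 exon bases on the same strand, a gene with a mean count of 0. The median log2 fold change of the list was 0.15. Across all genes tested, 16.2% were higher and 15.5% were lower by edgeR's adjusted p.

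Of 9 glucose and lactate transport genes, 8 were tested, 1 was higher and 1 was lower. By the same edgeR rule, 16.2% of all genes tested were higher and 15.5% were lower. This list had a median log2 fold change of 0.06. Slc2a3, the high-affinity glucose carrier GLUT3, fell from 122, 149.6 and 141 CPM in DMSO to 102, 103 and 97.7 CPM in BPAP (log2 fold change -0.45, edgeR adjusted p = 0.00719). Slc16a1, the lactate carrier MCT1, rose from 72.7, 92.3 and 99.3 CPM to 108, 124 and 117 CPM (0.40, adjusted p = 0.0292). Neither gene's groups overlapped. The Slc16a1 call was lost without DMSO 1 (adjusted p = 0.0921), DMSO 2 (0.0603), BPAP 2 (0.0665) or BPAP 3 (0.0615), and with limma-trend on the FPKM values (0.0631).

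Pyruvate can instead enter the mitochondria, where pyruvate dehydrogenase feeds it to the tricarboxylic acid cycle. Of 15 genes for pyruvate entry, 14 were tested, 2 were higher and 0 were lower by edgeR's test, with 4 and 2 at an unadjusted p under 0.05, and 1 lower with DESeq2. Pdhb, a subunit of pyruvate dehydrogenase, counted 114, 128 and 130.3 CPM in DMSO and 163, 166 and 168 CPM in BPAP, without overlap (log2 fold change 0.41, edgeR adjusted p = 0.00608). Mpc2, a subunit of the mitochondrial pyruvate carrier, had a log2 fold change of 0.38 (adjusted p = 0.0483). Its call was lost in each of the 6 fits without 1 library (adjusted p 0.0559 to 0.139). In the tricarboxylic acid cycle all 16 genes were tested, 2 were higher and 0 were lower by edgeR, with 3 and 1 at an unadjusted p under 0.05 and 2 and 0 with DESeq2. Suclg1, a subunit of succinyl-CoA ligase, rose (0.47, adjusted p = 0.00517), as did Sdhb, the iron-sulfur subunit of succinate dehydrogenase (0.45, adjusted p = 0.0125). Sdhb did not pass without DMSO 1 (0.0571) or with the trend removed (0.144). The list medians were -0.01 and 0.02. Among all genes tested, 16.2% were higher and 15.5% were lower by edgeR's adjusted p.

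The pentose phosphate pathway, which branches off at glucose 6-phosphate and yields NADPH and ribose, had 4 of 9 genes higher and 0 lower by edgeR (5 and 0 at an unadjusted p under 0.05, 3 and 0 with DESeq2), beside 16.2% of all genes tested higher and 15.5% lower by edgeR, with a median log2 fold change of 0.32. Taldo1, transaldolase of the non-oxidative arm, had 154, 197 and 197 CPM in DMSO and 259, 334 and 261 CPM in BPAP. The groups did not overlap (log2 fold change 0.64, edgeR adjusted p = 0.00595). It passed in every fit run, the one with the trend removed included (0.37, 0.0334). Pgd, the NADPH-yielding 6-phosphogluconate dehydrogenase, had 141, 156 and 145 CPM in DMSO and 190.1, 274 and 168 CPM in BPAP, where BPAP 2 stood well above the others (0.51, adjusted p = 0.0439). Pgls (0.32, 0.0327), which shares 776 exon bases with Fam129c on the same strand, and H6pd (0.32, 0.0466) also passed. With the length and GC trend taken out, Pgls did not pass (0.23, 0.141), while Tkt, transketolase of the non-oxidative arm, did (0.31, 0.0328), and is named here after its values were seen. The number of higher genes was 1 without DMSO 1, without DMSO 2, without DMSO 3 or without BPAP 1 and with limma-trend on FPKM, and 2 without a filter on low counts.

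Of 15 genes for gluconeogenesis and glycogen, 9 were tested, 1 was higher and 2 were lower. Beside the counts of this paragraph, 16.2% of all genes tested were higher and 15.5% were lower by edgeR. Gys1, the muscle-type glycogen synthase, fell from 371, 365 and 338 CPM to 225, 164 and 259.9 CPM (log2 fold change -0.73, edgeR adjusted p = 0.00640), and its exons overlap Ruvbl2 over 310 bases on the opposite strand. Pck2, mitochondrial phosphoenolpyruvate carboxykinase, rose from 54.8, 70.7 and 74.6 CPM to 91.6, 114 and 99.1 CPM (0.60, adjusted p = 0.00693). Among regulators and other targets of hypoxia-inducible factor, 15 of 16 genes were tested, 1 was higher and 0 were lower by edgeR (4 and 2 at an unadjusted p under 0.05, 1 and 1 with DESeq2). Higd1a, a hypoxia-induced mitochondrial protein, was the one that rose (0.50, adjusted p = 0.0103). The median of that list was -0.06.

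**Figure D5:**
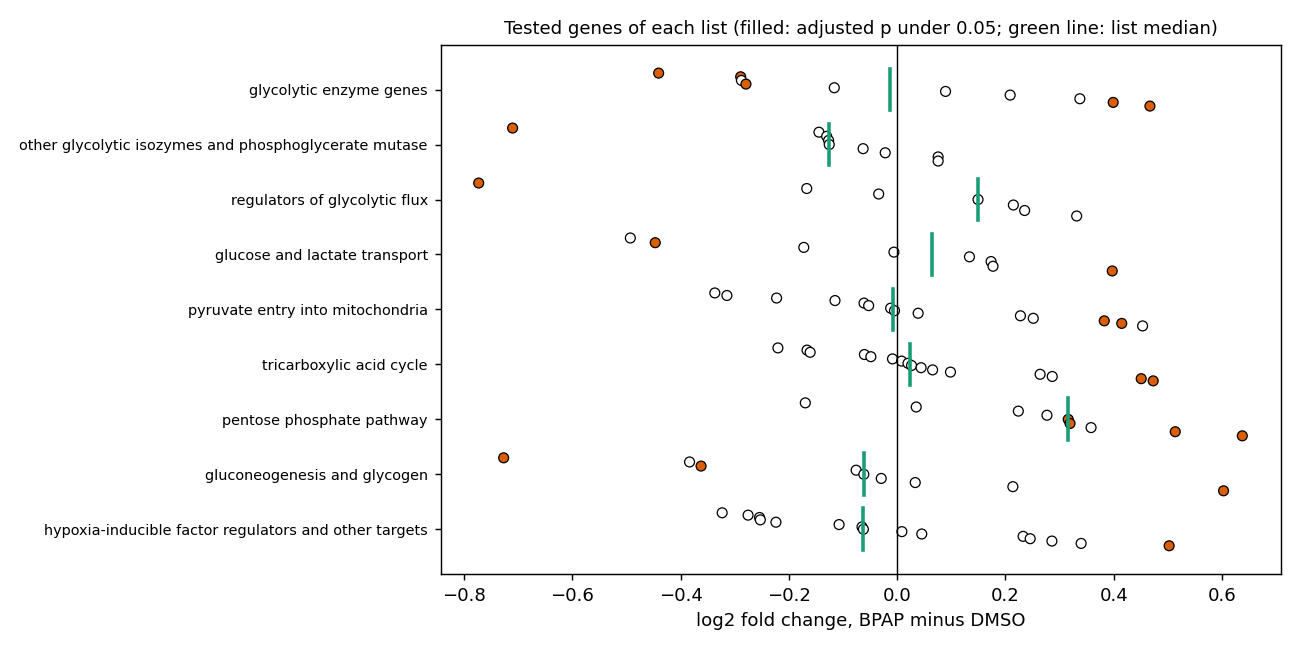
Log2 fold change (BPAP minus DMSO, x axis) of every tested gene in each list; filled points have an adjusted p under 0.05 and the green line is the list median. The pentose phosphate list has the highest median, 0.32, and the glycolytic enzyme genes lie on both sides of 0 with a median of -0.01.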

How the data were processed

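RNA was sequenced from 3 DMSO and 3 BPAP libraries, grouped by the treatment label. Per the file headers, the table the authors deposited gives each gene a raw count and an FPKM per library. Per the submitters' processing notes, HISAT2 2.0.4, StringTie 1.3.3b and edgeR were used with GRCm38, with no role or order given. FPKM values served only for levels and for 1 alternative.

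The deposited counts were tested with edgeR 4.0.16 (R 4.3.3): default expression filter, TMM factors, robust quasi-likelihood fit, 2-sided p, Benjamini-Hochberg adjustment over 11711 genes, threshold 0.05. A floor of 3 counts is 0.217 to 0.271 CPM, for counting error alone. The alternatives tried were DESeq2 size factors, upper quartile scaling, no filter, DESeq2 1.42.0, limma-voom and limma-trend on log2(FPKM + 1) (limma 3.58.1), the replicate number as a block, exon length and GC trends removed (lowess, span 0.3), each library left out and, chosen after seeing the data, counts summed with copies.

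Annotation came from GENCODE M21, which held 34267 of the table's identifiers, and upstream windows from RefSeq. Copies share at least 10% of a gene's 50-base words. The genes named are all 10 members, Pgam1, every tested isozyme, and, in each list, at most 4 genes past the threshold, taken by p; a few list genes are not reported here. Members and lists were chosen with earlier results of these data known.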

Additional observations from a re-analysis of the deposited data

How the results depend on the processing

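Of 150 comparisons of a member's call with an alternative, 135 kept the direction and the side of the threshold. Of the others, 14 kept the direction and lost the call, and 1 gained it. The 135 include members not called, which had no call to lose. Among the members called, Tpi1 and Ldha each kept the call in 14 of 15 alternatives, Hk2 in 13, Eno1 in 11 and Gpi1 in 9. With trends of exon length and GC content taken out, 0 members were higher, and the numbers of higher and lower genes became 1 and 2 for glucose and lactate transport, 2 and 1 for pyruvate entry, 1 and 1 for the tricarboxylic acid cycle, and 2 and 2 for hypoxia-inducible factor, with pentose phosphate genes at 4 and 0. The number of lower members was 1 without DMSO 2, 1 without DMSO 3 and 0 without BPAP 1, so it ranged from 0 to 2 over the fits without 1 library; the number of higher members stayed at 2. Over all genes, 1244 to 1654 were higher and 1235 to 1660 were lower without 1 library, the lowest number of higher genes being that without DMSO 1. The cause was not tested, beyond that such fits have fewer samples. DMSO 1 differed more from DMSO 2 and DMSO 3 (chi-square per degree of freedom 20.1 and 21.1) than those did from each other (6.98). BPAP 2 likewise differed more from BPAP 1 and BPAP 3 (19.2 and 18.3) than those did from each other (8.73). Without DMSO 1 the log2 fold change of Tpi1 was 0.36, against 0.47 with all libraries.

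The replicate number was used as a block in 1 alternative, which called 2149 genes higher and 2087 lower, against 1901 and 1814 without the block. Under the block Pgk1 passed (adjusted p = 0.0302), so that 3 members were higher, and 3 were lower. Deviations from the group means of same-numbered libraries correlated across genes at 0.10, 0.05 and 0.01. Each BPAP library correlated best with the DMSO library of its number. The margin was narrow for BPAP 3 (0.0098, against 0.0093 with DMSO 1), and DMSO 3 correlated best with BPAP 2 (0.05). The labels state no pairing, so the block was kept as an alternative, and whether the numbers mark pairs was not tested further. The lowest count of a member in any library was 962, for Gapdh in BPAP 2, and the common biological coefficient of variation was 0.127.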
